A study of Mus musculus with 9 samples.

Results

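The genes described here are 41 mouse genes that encode soluble enzymes and membrane proteins of the lysosome, together with the transcription factors Tfeb and Tfe3. They were chosen by name and function, but with earlier results of these data known. In all, 41 of 41 were found among the 27179 gene entries of the RNA-seq count files. Of these, 39 passed the filter on low counts, as did 12004 entries in all. The genes left out of the tests were Ctss and Sgsh.

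The cells were AML246, a C57BL/6 mouse acute myeloid leukaemia line grown in medium with IL3. As background on the line, AML246 lacks p53 and carries a doxycycline-regulated short hairpin, linked to GFP, that targets PU.1. Spi1 encodes PU.1, a transcription factor of myeloid cells. Single-cell clones 1, 2 and 4 were sequenced in 3 conditions, with 3 libraries per group and 9 in all. Untreated cells were sorted as GFPhigh. Dox cells had received doxycycline for 14 days and were sorted as GFPoff. Wash cells had received doxycycline for 14 days, were then left without it for 14 days, and were sorted as GFPhigh. Lack of p53 and the hairpin construct are common to every group, the controls included, and effects of the drug, of the gate on GFP and of the hairpin cannot be told apart. The clones come from a single line and each gave 1 library per condition, so the p-values rest on clone-to-clone spread within that line.

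Lysosomes are acidic organelles in which hydrolases break down proteins, glycans and lipids delivered by endocytosis, phagocytosis and autophagy. The soluble enzymes are carried there by sorting receptors, a proton pump (the V-ATPase) keeps the lumen acidic, and heavily glycosylated proteins such as LAMP1 and LAMP2 line the membrane. The factors TFEB and TFE3 bind an E-box motif in the promoters of many lysosomal genes, and myeloid cells are known for abundant lysosomes and related granules.

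Library totals ran from 7408118 to 9803258 counts. Levels are given as CPM, the count of a gene scaled to a library of 1000000. Spi1 in clones 1, 2 and 4 was 48.1, 46.6 and 23.7 CPM untreated, 197, 191 and 156 CPM in Dox, and 52.0, 40.6 and 23.9 CPM in Wash. The 3 Dox libraries were above all others, with a log2 difference of 2.20 ± 0.34 (SE) from untreated (edgeR quasi-likelihood test, adjusted p = 0.00623). The untreated library of clone 1 stood apart, since 1 entry without a gene symbol took 22.0% of its counts against 0.153% to 1.64% elsewhere. CPM values here are scaled by TMM factors. Without those factors the median of all tested genes moved by 0.23 (log2) in Dox against untreated. In the marker lists, 6 of 8 tested genes of mature neutrophils rose in Dox, and their summed level was 21.6 to 101 CPM untreated, 586 to 2397 CPM in Dox and 37.1 to 68.9 CPM in Wash. Of 14 macrophage and monocyte markers, 5 to 8 were at 0 in each library, and the complement genes C1qa and C1qc were at 0 in all 9. Of the 6 that could be tested, Fcgr1 rose and Cx3cr1 fell in Dox. The summed level of the 14 was 1784 to 2305 CPM untreated, 1211 to 5371 CPM in Dox and 1811 to 2250 CPM in Wash. Eosinophil markers summed to 8397 to 12463, 3409 to 4937 and 8361 to 10953 CPM in the same order, and mast cell and basophil markers to 2675 to 3481, 445 to 2606 and 918 to 3745 CPM. Of 7 tested eosinophil markers 2 rose and 1 fell in Dox, so single genes did not all follow the sum. Of 7 tested mast cell and basophil markers, 1 fell and none rose. Dendritic cell markers summed to 105 to 182, 29.9 to 123 and 12.3 to 190 CPM. These marker shifts move with the same comparison as the lysosomal genes, and their part in the results below was not tested. In bulk RNA, fewer cells of a type and less RNA per cell cannot be told apart.

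Levels of the lysosomal genes spanned a wide range. Per kilobase of transcript, the highest means over the 9 libraries belonged to Ctsd at 791, Cd63 at 629 and Psap at 419 CPM per kb, and the lowest among tested genes to Lgmn at 4.73, Ids at 5.16 and Tfe3 at 5.88 CPM per kb. Ctsd is the main aspartic protease of the lysosome, Cd63 is a tetraspanin of late endosomes and granules, and Psap is the precursor of the saposins that help enzymes reach sphingolipids. Together these 3 genes made up 46.7% ± 1.53 (SD, n = 3) of the summed per-kilobase level of the 41 genes in untreated cells, 39.9% ± 1.16 in Dox and 48.8% ± 1.05 in Wash. Their own summed level was 1812 ± 118 CPM per kb untreated and 1868 ± 281 in Dox. That of all 41 genes was 3880 ± 246 and 4674 ± 577, so the lower share in Dox came with a higher total. The makeup by role was also summed. Glycan-degrading enzymes held 16.1% to 18.7% of the summed level in untreated libraries, 23.1% to 25.4% in Dox and 15.0% to 22.8% in Wash. The share of cathepsins and other proteases was 35.5% to 36.3% untreated, 20.4% to 30.2% in Dox and 22.1% to 36.2% in Wash. For both roles the untreated and Dox ranges of the share did not overlap, and the Wash range was the widest. In clones 1, 2 and 4 the protease sum itself was 1402, 1473 and 1295 CPM per kb untreated. In Dox it was 1045, 1477 and 1032 CPM per kb, so in clone 2 the share fell without a lower sum. Much of the glycan share came from Man2b1, at a mean of 98.7 CPM per kb untreated and 319 in Dox, and Gusb, at 79.0 and 232 CPM per kb. Lipid genes held 17.7% to 21.7% untreated and 19.2% to 21.8% in Dox, and membrane proteins with granulin 25.7% to 30.4% and 23.8% to 34.7%, with overlap in both.

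**Figure D1:**
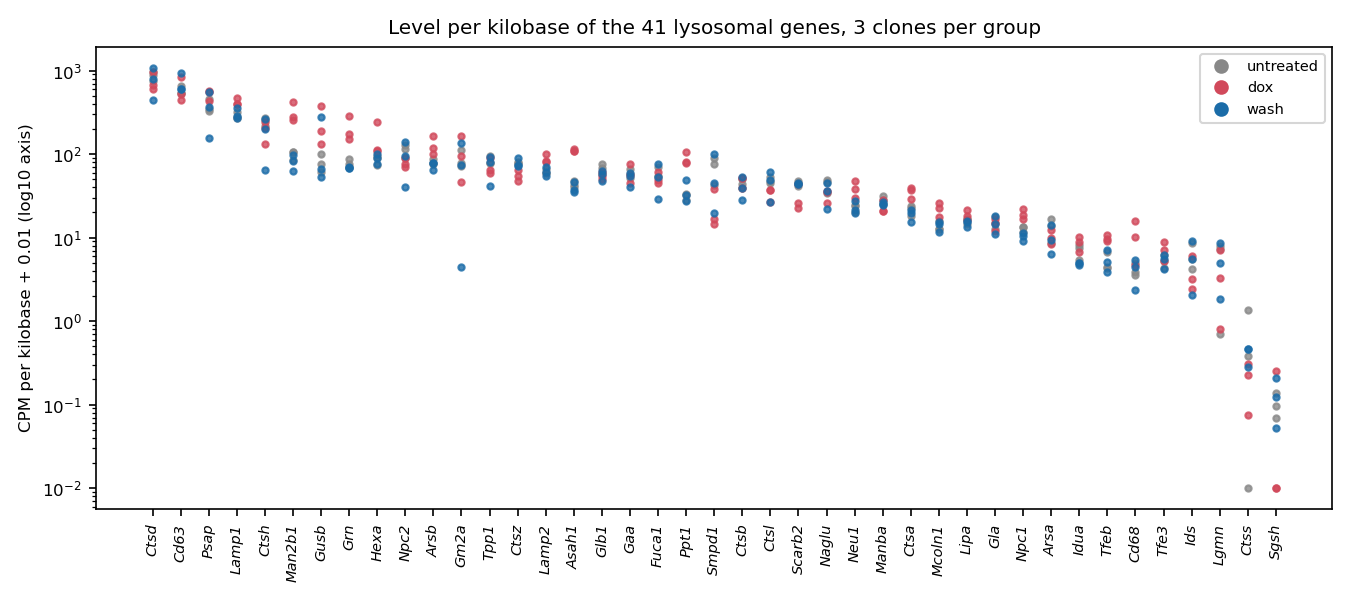
Level of each of the 41 lysosomal genes in CPM per kilobase of transcript (log10 axis, 0.01 added), 1 dot per library coloured by group, genes ordered by mean level. Ctsd, Cd63 and Psap have the highest means, at 791, 629 and 419 CPM per kb, and the untested Ctss and Sgsh lie at the bottom.

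At the other end, the cathepsin gene Ctss, which is abundant in macrophages, had 10, 4 and 0 counts in untreated clones 1, 2 and 4. It had 1, 3 and 3 counts in Dox and 4, 5 and 5 counts in Wash. The heparan sulfatase gene Sgsh had 3, 2 and 3 counts untreated, 0, 8 and 0 in Dox, and 2, 4 and 7 in Wash. At this depth no difference was detectable for either gene.

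Promoters were searched for the E-box form TCACGTG on both strands, in windows from 250 bases before to 50 bases after each RefSeq transcript start (GRCm38.p6). Windows were found for 37 of the 41 genes; Asah1, Npc1, Ctsh and Ctsb had no entry. TCACGTG was present for 11 of 37 genes (29.7%), against 4.29% of all genes with a window. Its core CACGTG, which every TCACGTG contains, was present for 12 of 37 (32.4%) against 8.09%. One match per gene is shown for the 11 genes, because this E-box is the sequence that TFEB and TFE3 bind. Each line gives the gene, the strand, the position and the bases, with the E-box in capitals.
Lamp1, plus strand, chr8:13159135-13159161: cgtgaccacaTCACGTGcggaacggag
Mcoln1, plus strand, chr8:3500463-3500490: ggcgccccgcTCACGTGAccgcggcgca
Ctsa, plus strand, chr2:164833750-164833777: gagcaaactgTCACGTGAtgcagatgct
Ctsd, minus strand, chr7:142387909-142387936: cgcccgcgtcTCACGTGAcccgttgagg
Lgmn, minus strand, chr12:102439126-102439152: ggaatgtctgTCACGTGgtccatttta
Gaa, plus strand, chr11:119267812-119267838: ttctgtgcgaTCACGTGtttgactctg
Gla, minus strand, chrX:134601183-134601210: gagatctcggTCACGTGAgcaactctcg
Glb1, plus strand, chr9:114401019-114401045: tgcttctgagTCACGTGgcctacagag
Naglu, plus strand, chr11:101070010-101070036: aaccttcaggTCACGTGgcccgaggtc
Arsa, minus strand, chr15:89477425-89477451: caactcagtgTCACGTGttgtctgctc
Sgsh, minus strand, chr11:119355523-119355549: gcctgccgtgCACGTGAccgtggggag

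Lamp1 held 4 such matches in its window, and Mcoln1, Ctsa, Ctsd and Gla held 2 each. The match printed for Lamp1 begins 16 bases before its start, that of Mcoln1 46 bases before and that of Ctsa 13 bases before. The 10 tested genes with TCACGTG had a median log2 difference of -0.13 between Dox and untreated cells, and the 25 tested genes with a window lacking it had a median of 0.28. A match is a description of these letters and not a measured binding site. A second string, GAGGAAG, which is a core sequence bound by PU.1, was present on either strand for 7 of 37 genes (18.9%) against 15.4% of all genes with a window. The 7 genes were Cd63, Ctss, Gla, Gm2a, Gusb, Lipa and Man2b1. Of the 4 genes that rose in Dox, Man2b1 had a match, Ppt1 and Grn had none and Asah1 had no window. The Man2b1 match begins 35 bases before a transcript start and reads as the reverse complement CTTCCTC. The window of Grn held neither string, and the 100 bases before its start are given for comparison.
Man2b1, plus strand, chr8:85083224-85083250: gccctgccccCTTCCTCaccgattggc
Grn, plus strand, chr11:102430407-102430506: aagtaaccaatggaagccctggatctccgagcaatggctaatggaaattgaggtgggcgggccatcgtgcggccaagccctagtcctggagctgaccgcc

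The first comparison asked which lysosomal genes differed after 14 days of doxycycline, when Spi1 was higher. Man2b1, Asah1, Ppt1 and Grn rose, by 2.55-fold to 3.23-fold in the fit, and no lysosomal gene fell. These 4 of 39 tested genes are 10.3%, against 6.57% of all tested entries that rose, and the 0 that fell stand against 4.35% that fell (edgeR quasi-likelihood test, adjusted p below 0.05). They encode an alpha-mannosidase of glycoproteins, acid ceramidase, a thioesterase that removes fatty acids from proteins, and progranulin, which is not an enzyme. With the clone as a block in the fit, 13 genes rose (33.3% against 13.0%) and Smpd1 alone fell (2.56% against 11.7%). Without the block the median log2 difference of the 39 genes was 0.21, beside 0.00 for all tested entries, and with it 0.097, beside -0.01.

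**Figure D2:**
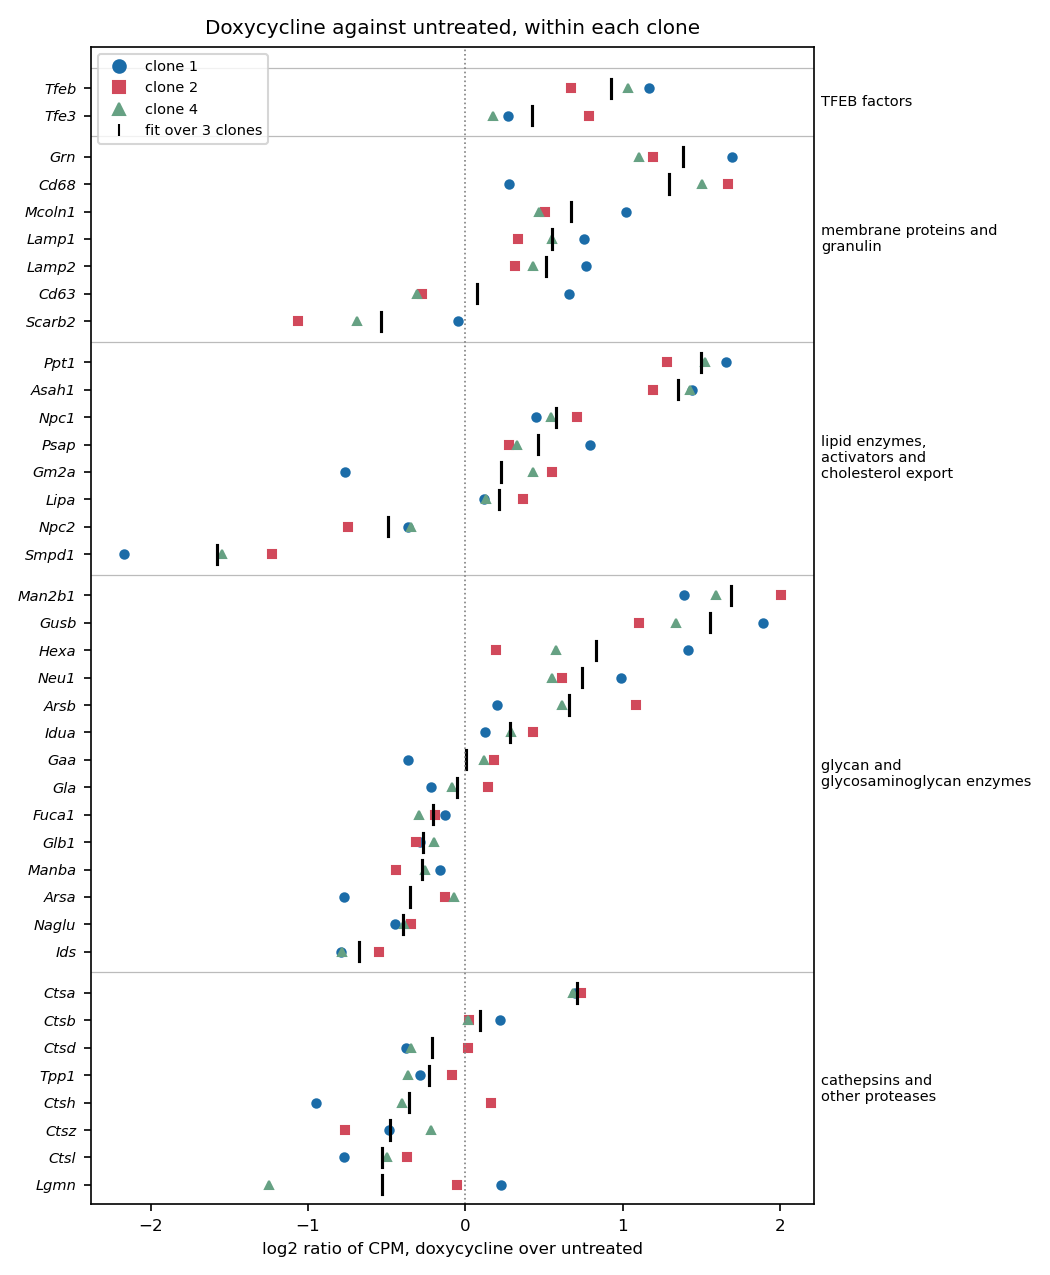
Ratio of Dox to untreated CPM within each clone (log2 scale, 1 point per clone) and the fitted log2 difference (bar) for the 39 tested lysosomal genes, grouped by role. Man2b1, Asah1, Ppt1 and Grn lie above 1 in all 3 clones, and Smpd1 lies below -1 in all 3.

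Among the glycan enzymes, Man2b1 (chr8:85082730-85098739, GRCm38.p6) measured 460, 457 and 363 CPM in the untreated libraries of clones 1, 2 and 4. In Dox it measured 1206, 1836 and 1094 CPM. Every Dox library was above every untreated library, by 1.69 ± 0.27 (log2 ± SE, edgeR adjusted p = 0.00656). It was the only one of 14 tested glycan enzymes to rise without the clone block, and the median log2 difference of the 14 was -0.02, with 7 above 0. Gusb, the beta-glucuronidase gene, stood at 247, 150 and 185 CPM untreated and 918, 322 and 469 CPM in Dox. Its groups did not overlap, but the Dox libraries were widely spread, and the difference of 1.55 ± 0.64 had an edgeR adjusted p of 0.152, or 0.0164 with the clone block. The sialidase gene Neu1 stood at 91.2, 94.7 and 77.9 CPM untreated and 181, 145 and 114 CPM in Dox, a difference of 0.74 ± 0.21 (edgeR adjusted p = 0.0579, or 0.0150 with the block). Arsb, an arylsulfatase that acts on dermatan and chondroitin sulfate, stood at 351, 309 and 307 CPM untreated and 403, 655 and 469 CPM in Dox. Its difference of 0.66 ± 0.21 had an edgeR adjusted p of 0.0804, or 0.0450 with the block. The groups of Neu1 and Arsb did not overlap either. The other 10 tested glycan enzymes (Hexa, Gaa, Gla, Glb1, Naglu, Manba, Fuca1, Arsa, Ids and Idua) passed in neither fit, with differences from -0.67 for Ids to 0.83 for Hexa.

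Among the genes of lipid breakdown, Asah1 (chr8:41340646-41397644) encodes acid ceramidase, which splits ceramide. It stood at 95.9, 107 and 90.8 CPM untreated and 260, 244 and 244 CPM in Dox. The 3 Dox libraries lay close together and far above the untreated ones, with a difference of 1.35 ± 0.16 (edgeR adjusted p = 0.00217), the smallest adjusted p of the 39 genes. Ppt1 (chr4:122836077-122859175), palmitoyl-protein thioesterase, stood at 83.6, 80.8 and 70.4 CPM untreated and 264, 197 and 203 CPM in Dox. Its groups did not overlap and differed by 1.50 ± 0.24 (edgeR adjusted p = 0.00649). Npc1, the membrane protein through which cholesterol leaves the lysosome, stood at 70.4, 70.6 and 60.4 CPM untreated and 96.3, 116 and 88.0 CPM in Dox. All Dox libraries were above the untreated ones, but the difference of 0.57 ± 0.17 had an edgeR adjusted p of 0.0580, or 0.0288 with the clone block. The gene bodies of Asah1, Ppt1 and Npc1 overlap those of the counted genes Frg1, Cap1 and Rmc1, over 8464, 128 and 8982 bases, and whether the counting used strand is not given in the sources used here.

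Smpd1 went the other way. It encodes acid sphingomyelinase, which releases ceramide from sphingomyelin. Its levels were 182, 217 and 103 CPM untreated and 40.5, 92.6 and 35.2 CPM in Dox. Each Dox library was below each untreated one, but the difference of -1.58 ± 0.59 had an edgeR adjusted p of 0.122, or 0.0140 with the block. The other lipid genes passed in neither fit. Psap stood at 900, 1255 and 946 CPM untreated and 1556, 1521 and 1187 CPM in Dox, with groups that overlapped. Gm2a, the activator that presents ganglioside GM2 to hexosaminidase, stood at 331, 476 and 303 CPM untreated and 195, 697 and 408 CPM in Dox, lower in clone 1 and higher in clones 2 and 4. Lipa, the acid lipase of cholesteryl esters, and Npc2, the soluble partner of NPC1, differed by 0.21 ± 0.17 and -0.49 ± 0.38.

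Cathepsins and other proteases gave no call without the block. Of the 8 tested, 6 had a fitted difference below 0, and their median log2 difference was -0.29. Ctsa, a carboxypeptidase that also protects the sialidase NEU1 and beta-galactosidase, had the largest positive difference of the role, at 83.6, 86.8 and 65.8 CPM untreated and 136, 144 and 106 CPM in Dox. Its groups did not overlap, and the difference of 0.71 ± 0.20 had an edgeR adjusted p of 0.0523, or 0.0187 with the block. Its gene body overlaps Neurl2 and Pltp. Ctsd, the most abundant of the 41 per kilobase, stood at 1716, 1856 and 1478 CPM untreated and 1324, 1880 and 1163 CPM in Dox, with groups that overlapped. The cysteine protease genes Ctsl and Ctsz were lower in every Dox library than in every untreated one. Their differences were -0.53 ± 0.28 and -0.48 ± 0.17, with edgeR adjusted p of 0.262 and 0.109, or 0.0683 and 0.0708 with the block. Lgmn, the asparaginyl endopeptidase, stood at 1.28, 13.9 and 14.7 CPM untreated and 1.50, 13.4 and 6.20 CPM in Dox, so that clone 1 was the lowest in both groups. Ctsb, Ctsh and Tpp1 differed by 0.09 ± 0.24, -0.36 ± 0.44 and -0.23 ± 0.30, and none passed.

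Of the membrane proteins and granulin, 6 of 7 had a fitted difference above 0, and their median was 0.55. Grn (chr11:102430507-102436809) encodes progranulin, a secreted and lysosomal glycoprotein that is cut into granulin peptides. It stood at 205, 177 and 163 CPM untreated and 665, 406 and 351 CPM in Dox. No Dox library overlapped the untreated ones, and the difference was 1.38 ± 0.24 (edgeR adjusted p = 0.0102). Lamp2 stood at 243, 271 and 244 CPM untreated and 414, 336 and 329 CPM in Dox, and Lamp1 at 636, 712 and 615 CPM against 1074, 900 and 900 CPM. Neither pair of groups overlapped. Lamp2 differed by 0.51 ± 0.17 (edgeR adjusted p = 0.0943, or 0.0415 with the block) and Lamp1 by 0.55 ± 0.19 (edgeR adjusted p = 0.101, or 0.0524 with the block). Mcoln1, the calcium and iron channel TRPML1, stood at 25.3, 31.6 and 25.6 CPM untreated and 51.4, 44.9 and 35.4 CPM in Dox, a difference of 0.67 ± 0.20 (edgeR adjusted p = 0.0653, or 0.0357 with the block). Cd68, a macrophage-associated relative of the LAMPs, stood at 3.85, 5.04 and 3.58 CPM untreated and 4.68, 16.0 and 10.2 CPM in Dox. The clone 1 Dox library overlapped the untreated ones, and the difference of 1.30 ± 0.48 had an edgeR adjusted p of 0.121, or 0.0402 with the block. Cd63 stood at 552, 559 and 670 CPM untreated and 872, 463 and 541 CPM in Dox, higher in clone 1 and lower in clones 2 and 4. Scarb2, the receptor that carries glucocerebrosidase to lysosomes, had the one negative difference of the role, -0.54 ± 0.24 (edgeR adjusted p = 0.177, or 0.0707 with the block).

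Tfeb (chr17:47737037-47792416) and Tfe3 encode the factors named above. Tfeb stood at 12.1, 18.9 and 12.5 CPM untreated and 27.2, 30.0 and 25.6 CPM in Dox. The groups did not overlap, and the difference of 0.93 ± 0.28 had an edgeR adjusted p of 0.0626, or 0.0105 with the clone block. Tfe3 stood at 14.1, 17.00 and 20.5 CPM untreated and 17.03, 29.4 and 23.2 CPM in Dox. It was higher in Dox within each clone, but the groups overlapped and the difference of 0.43 ± 0.27 passed in neither fit (edgeR adjusted p = 0.347, or 0.130 with the block). These are mRNA levels, while both proteins are known to be regulated by their location in the cell, which was not measured.

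**Figure D3:**
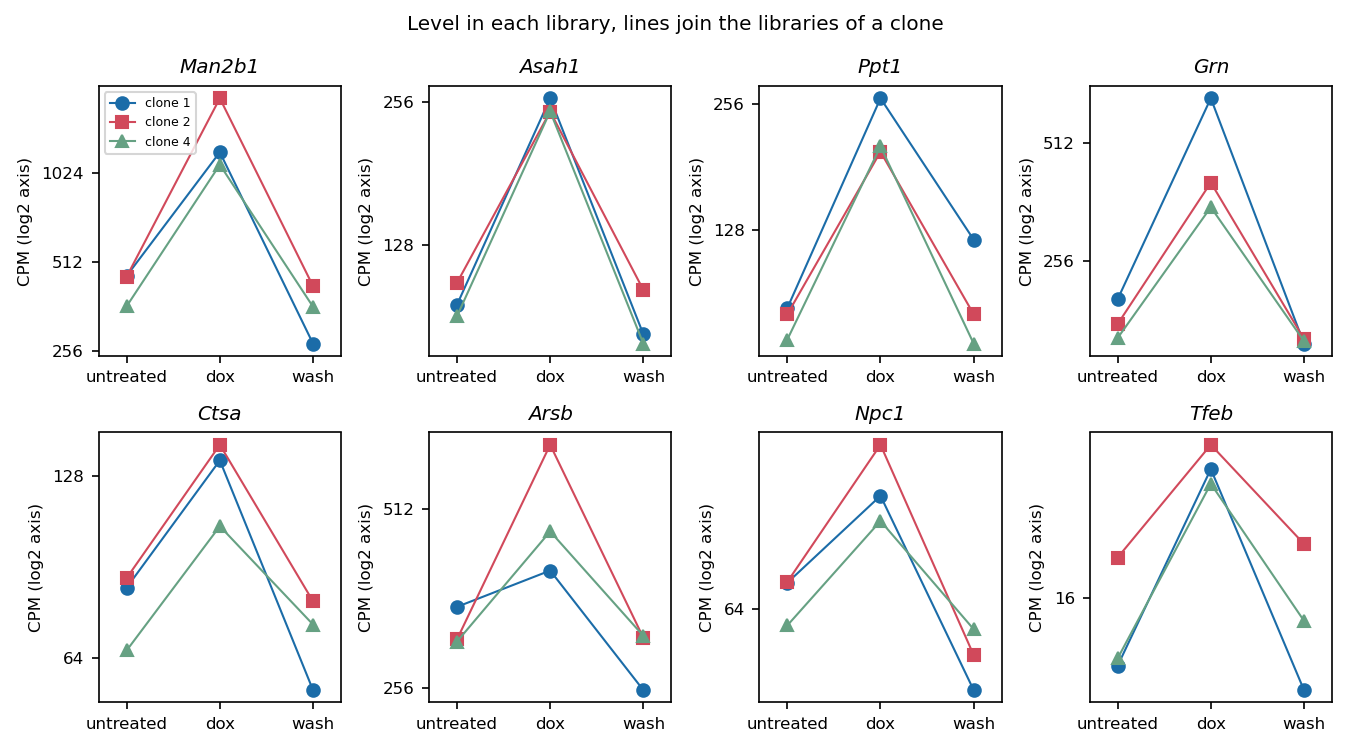
CPM (log2 axis) of Man2b1, Asah1, Ppt1, Grn, Ctsa, Arsb, Npc1 and Tfeb in each of the 9 libraries, with lines joining the untreated, Dox and Wash libraries of a clone. The Dox libraries are above the untreated and Wash libraries of their own clone in all 8 panels.

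Counted without a test, 14 of 39 genes (35.9% against 20.4% of all tested entries) had every Dox library above every untreated one, and Ctsl, Ctsz and Smpd1 (7.69% against 18.5%) had every Dox library below. Within clones, 20 genes were higher in Dox in all 3 (51.3% against 32.1%) and 12 were lower in all 3 (30.8% against 31.8%). The count of calls changed with the clone left out. With clone 1 left out of all groups, 6 genes passed (Gusb, Man2b1, Asah1, Ppt1 and Grn higher, Scarb2 lower), beside 7.96% of all entries. With clone 2 left out, Asah1 alone passed, beside 1.32% of entries, and with clone 4 left out none passed, beside 0% of entries.

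The second comparison asked what followed when doxycycline was withdrawn, Wash against Dox. It shares its Dox libraries with the first comparison, so the values of the same genes are set side by side and are not independent. Man2b1, Asah1, Ppt1 and Grn fell, and so did Ctsa, Arsb and Npc1. These 7 of 39 genes are 17.9%, against 6.02% of all tested entries that fell, and no lysosomal gene rose, against 3.64% (edgeR quasi-likelihood test, adjusted p below 0.05). With the clone block 13 genes fell (33.3% against 12.4%) and none rose (10.4% of entries). The median log2 difference was -0.31 over the 39 genes, beside 0.04 over all entries.

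In clones 1, 2 and 4 after washing, Man2b1 stood at 271, 425 and 362 CPM. Each of these was under its own Dox library, and the fall was -1.97 ± 0.27 (log2 ± SE, edgeR adjusted p = 0.00367). Asah1 returned to 83.2, 103 and 79.5 CPM, a difference of -1.49 ± 0.16 from Dox (edgeR adjusted p = 0.00175). Again no library overlapped the Dox group. Ppt1 stood at 122, 80.9 and 68.9 CPM (-1.29 ± 0.23, edgeR adjusted p = 0.0123), with the washed clone 1 the highest. Grn stood at 158, 162 and 160 CPM, the narrowest spread among the genes that fell, with a difference of -1.56 ± 0.25 (edgeR adjusted p = 0.00647).

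Ctsa, Arsb and Npc1 passed here and missed the threshold in Dox against untreated; whether the 2 differences are unequal in size was not tested. Ctsa stood at 56.6, 79.4 and 72.7 CPM in Wash (-0.89 ± 0.20, edgeR adjusted p = 0.0266). Arsb stood at 254, 311 and 313 CPM (-0.80 ± 0.21, edgeR adjusted p = 0.0473), and Npc1 at 47.9, 54.3 and 59.6 CPM (-0.89 ± 0.17, edgeR adjusted p = 0.0137). No Wash library of these genes overlapped the Dox libraries. The genes that passed with the block alone were Neu1, Lamp2, Mcoln1, Cd68, Tfeb and Idua. Tfeb stood at 11.0, 19.97 and 14.6 CPM (-0.87 ± 0.27, edgeR adjusted p = 0.0825, or 0.0129 with the block). Tfe3 stood at 13.6, 18.1 and 20.3 CPM (-0.42 ± 0.27, edgeR adjusted p = 0.366, or 0.141 with the block), so it passed in no fit of either comparison. Idua, the alpha-L-iduronidase gene, stood at 30.2, 34.4 and 22.4 CPM in Dox and 15.8, 16.9 and 16.5 CPM in Wash (-0.82 ± 0.23, edgeR adjusted p = 0.0567, or 0.0185 with the block). The gene body of Idua overlaps those of the counted genes Dgkq and Slc26a1, over a summed 9003 bases.

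In the remaining block-only genes the Wash levels were close to the untreated ones. Neu1 stood at 82.3, 107 and 74.9 CPM, Lamp2 at 288, 248 and 223 CPM, Mcoln1 at 23.6, 28.8 and 30.5 CPM and Cd68 at 2.39, 4.53 and 5.38 CPM. Smpd1 stood at 47.7, 243 and 107 CPM, higher than Dox in every clone but by little in clone 1, and its difference of 1.24 ± 0.59 passed in neither fit (edgeR adjusted p = 0.216, or 0.0522 with the block). Gusb stood at 693, 129 and 163 CPM, so that it stayed high in clone 1. Over the list, 15 genes (38.5% against 14.5% of entries) had every Wash library below every Dox one, and 1, Ctsz (2.56% against 11.8%), had every Wash library above.

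Leaving out libraries changed these counts too. Without clone 1, 6 genes passed, 5 lower and Scarb2 higher, beside 8.80% of entries; without clone 2, Asah1 alone passed, beside 0.58% of entries; and without clone 4 none did, beside 0.0331% of entries. Without the washed library of clone 1 alone, 13 genes passed in Dox against untreated and 9 in Wash against Dox, of which 8 were lower and Ctsl was higher. The shares of all entries that passed also rose in that setting, to 18.4% and 14.8%.

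The third comparison asked whether washed cells differed from cells never treated. None of 39 lysosomal genes passed, and neither did any of all tested entries, 0% in the fit with the clone block as without it (edgeR quasi-likelihood test). DESeq2 and limma voom also called none of the 39. At an unadjusted p below 0.05 there was 1 gene, Idua (2.56% against 0.317% of entries), at 27.7, 25.6 and 18.3 CPM untreated, with an edgeR difference of -0.54 ± 0.23, unadjusted p = 0.0452 and adjusted p = 1. Idua, Npc1 and Grn had every Wash library below every untreated one (7.69% against 1.05%), by -0.54, -0.32 and -0.18 on the log2 scale, and no gene had every Wash library above (1.31% of entries). The median log2 difference over the 39 genes was -0.14, beside 0.02 for all entries. A p that misses the threshold does not show that the washed cells were the same as untreated cells.

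**Figure D4:**
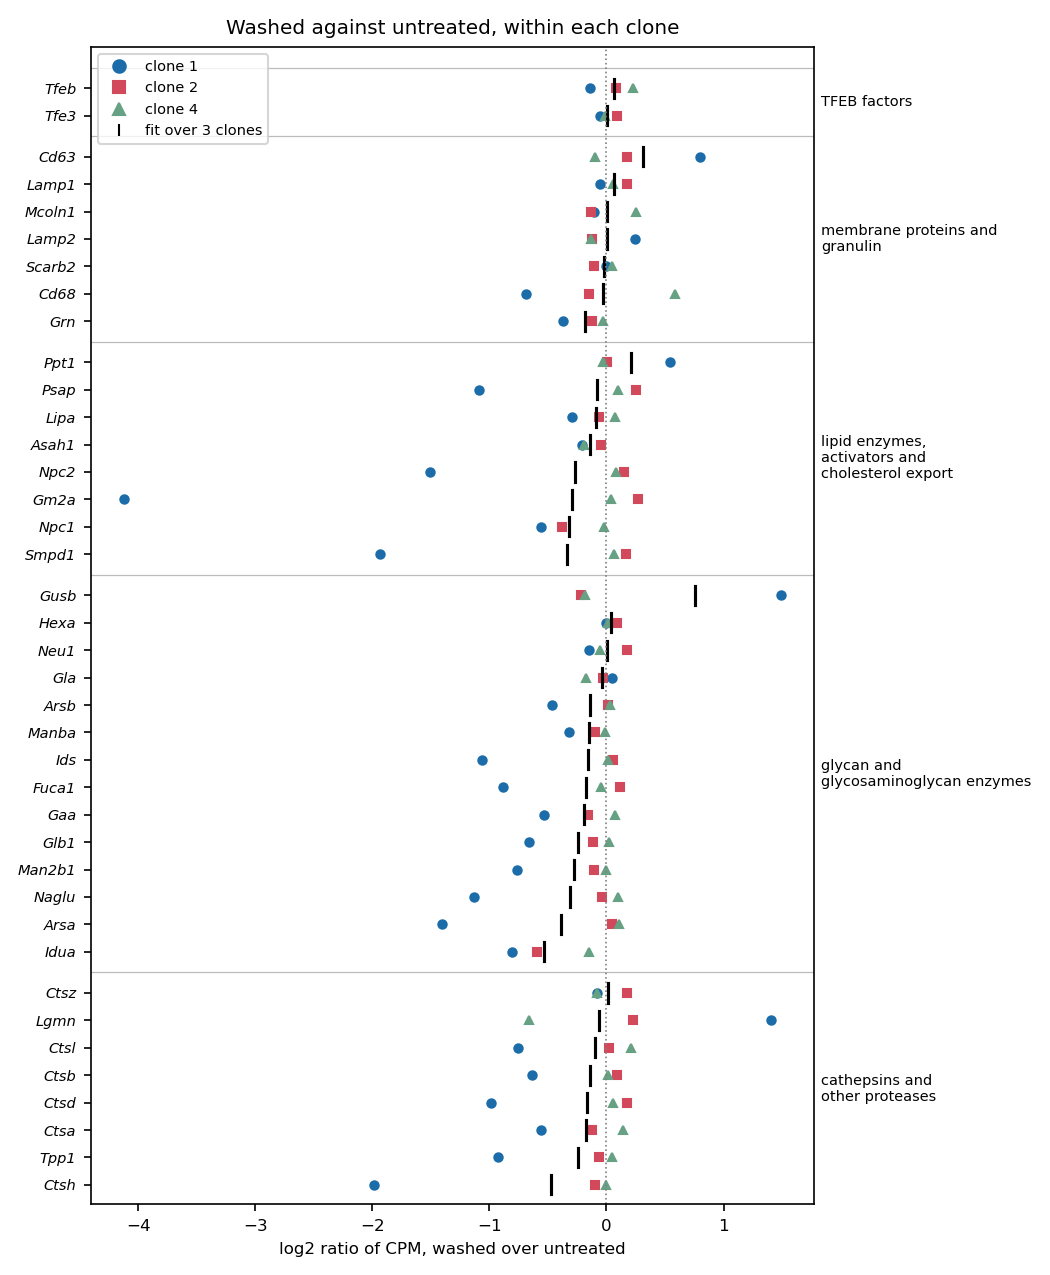
Ratio of Wash to untreated CPM within each clone (log2 scale, 1 point per clone) and the fitted difference (bar) for the 39 tested lysosomal genes. Points of clones 2 and 4 lie within 2-fold of 1, while 10 genes of clone 1 lie beyond 2-fold, with Gm2a at a ratio of 0.0573.

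Clone 1 accounts for the wide scatter in that plot. Within clone 1, 2 genes were more than 2-fold higher in Wash than untreated, Lgmn and Gusb (5.13% against 6.50% of entries), and 8 were more than 2-fold lower, namely Ctsh, Naglu, Arsa, Ids, Psap, Gm2a, Smpd1 and Npc2 (20.5% against 15.0%). In clones 2 and 4 no lysosomal gene passed 2-fold, beside 2.83% and 2.44% of entries. Gm2a was the most extreme. It stood at 19.0 CPM in washed clone 1, beside 331 CPM in the untreated and 195 CPM in the Dox library of that clone. In the washed clones 2 and 4 it stood at 573 and 311 CPM. Its ratio in clone 1 was 0.0573, or 0.0916 without TMM factors. Psap stood at 422, 1496 and 1010 CPM in washed clones 1, 2 and 4 and Ctsh at 104, 328 and 433 CPM, with clone 1 lowest in both. The untreated library of clone 1 is the one with 22.0% of its counts on a single entry, and the ratio of TMM factors between the washed and untreated libraries of clone 1 was 1.60. Without those factors, 4 genes were more than 2-fold higher (Lgmn, Gusb, Ppt1 and Cd63) and 3 more than 2-fold lower (Ctsh, Gm2a and Smpd1), beside 39.1% of all entries past 2-fold. Dropping the factors multiplies every ratio in clone 1 by that same 1.60. The median ratio of the lysosomal genes was 0.692 with TMM factors and 1.11 without. Over all entries the median was 1.00 and 1.60. Since every ratio is multiplied alike, the order of these medians could not change between the scalings.

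Differences between clones were tested in 2 ways. For a response to doxycycline that differs between clones, the Dox library of a clone was set against its untreated and Wash libraries, pooled. The difference between the pooled libraries gave the spread. It was large in clone 1 (chi-square per degree of freedom 380, against 5.88 in clone 2 and 3.62 in clone 4). The p-values are therefore not those of Dox against untreated, and a lack of calls does not show equal responses. In this test edgeR called none of the 39 genes and 0% of entries. At an unadjusted p below 0.05 there were 2 genes, Hexa and Scarb2 (5.13% against 3.39%). Hexa, a hexosaminidase subunit, stood at 170, 176 and 139 CPM untreated, 453, 202 and 207 CPM in Dox and 169, 187 and 140 CPM in Wash. The high Dox level in clone 1 stood out, and its edgeR unadjusted p for the response was 0.00496. Scarb2 stood at 95.6, 99.7 and 88.2 CPM untreated, 92.5, 47.8 and 54.8 CPM in Dox and 95.3, 92.4 and 91.3 CPM in Wash. It was lower in Dox in clones 2 and 4 and nearly level in clone 1, with an edgeR unadjusted p of 0.0146. For a level that differs between clones over all conditions, none passed (0% of entries), and 12 of 39 (30.8%) had an unadjusted p below 0.05, beside 37.5% of entries. The smallest adjusted p among the 39 was that of Lgmn (edgeR adjusted p = 0.0505), whose Wash levels were 3.41, 16.2 and 9.30 CPM, again lowest in clone 1. Ids, the iduronate sulfatase gene, stood at 20.9, 43.1 and 27.3 CPM untreated, 12.1, 29.5 and 15.9 CPM in Dox and 10.03, 44.7 and 27.5 CPM in Wash, highest in clone 2 in every condition.

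Other genes of the lysosome were read from lists of function, and are given for the same first comparison, in which 10.9% of all entries passed in either direction. Counts and p-values below are from the fit without the clone block. With the block, 13.0% of all entries rose and 11.7% fell. V-ATPase subunits then had 9 higher and 0 lower, other membrane proteins 8 and 4, and further enzymes 4 and 2. The sorting list had 8 and 2, TFEB regulators 4 and 1, and autophagy genes 5 and 3. In the list of V-ATPase subunits, 5 of 18 tested genes rose in Dox and none fell, with a list median of 0.41, and 5 of 18 fell in Wash against Dox. Atp6v0b went from 110 ± 17.2 CPM (SD, n = 3) untreated to 268 ± 42.5 in Dox (log2 difference 1.29 ± 0.19, edgeR adjusted p = 0.00477). Atp6v0c, which encodes the proteolipid of the membrane ring, went from 35.6 ± 2.77 to 81.4 ± 14.8 CPM (1.19 ± 0.19, edgeR adjusted p = 0.00646), and Atp6v0d1 from 105 ± 16.3 to 211 ± 21.2 CPM (1.00 ± 0.21, edgeR adjusted p = 0.0185). These 3 belong to the membrane-embedded V0 sector of the pump. Atp6v1c1, of the cytosolic V1 sector, rose by 0.97 ± 0.22 (edgeR adjusted p = 0.0252).

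Other lysosomal membrane proteins moved both ways, with 4 of 27 higher and 2 lower in Dox. Ostm1, the partner of a chloride transporter, went from 93.1 ± 11.0 to 172 ± 16.2 CPM (edgeR adjusted p = 0.0101) and Ctns, the cystine exporter, from 11.7 ± 1.61 to 24.96 ± 3.92 CPM (edgeR adjusted p = 0.0138). Slc29a3, a nucleoside transporter, fell from 83.0 ± 11.3 to 15.3 ± 2.92 CPM (edgeR adjusted p = 0.00353), and Tpcn1, a cation channel, from 269 ± 15.1 to 155 ± 8.36 CPM (edgeR adjusted p = 0.0212). Among 36 further lysosomal enzymes, 1 rose (Dpp7, a dipeptidyl peptidase) and 1 fell (Epdr1, a lipid-binding protein listed with them). The list median was 0.19.

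For the genes that act on TFEB at the lysosome, 3 of 17 rose and 1 fell. Fnip1, a folliculin partner, went from 42.0 ± 9.28 to 111 ± 3.10 CPM (edgeR adjusted p = 0.00811). The Ragulator subunits Lamtor4 and Lamtor1 went from 128 ± 10.1 to 244 ± 5.50 CPM and from 41.5 ± 0.345 to 76.1 ± 5.92 CPM (edgeR adjusted p = 0.00988 and 0.0139). Flcn, which encodes folliculin itself, fell from 54.7 ± 3.33 to 34.7 ± 1.94 CPM (edgeR adjusted p = 0.0270), so the folliculin partners went in opposite directions. In the sorting list 2 of 25 rose, the sorting receptor Sort1, from 184 ± 22.0 to 333 ± 36.7 CPM (edgeR adjusted p = 0.0337), and Ap1b1, an adaptor subunit (edgeR adjusted p = 0.0463). Of 30 autophagy genes 3 rose (Uvrag, Atg5 and Optn) and Wipi1 fell. Of 5 genes listed as cathepsin inhibitors none passed in Dox against untreated without the block, and with it 1 fell. Serpinb6b, a serpin gene of that list, rose in Wash against Dox, from 0.509 ± 0.208 to 2.02 ± 0.587 CPM (edgeR adjusted p = 0.0343). These levels are low, and whether its protein inhibits a cathepsin was not tested.

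**Figure D5:**
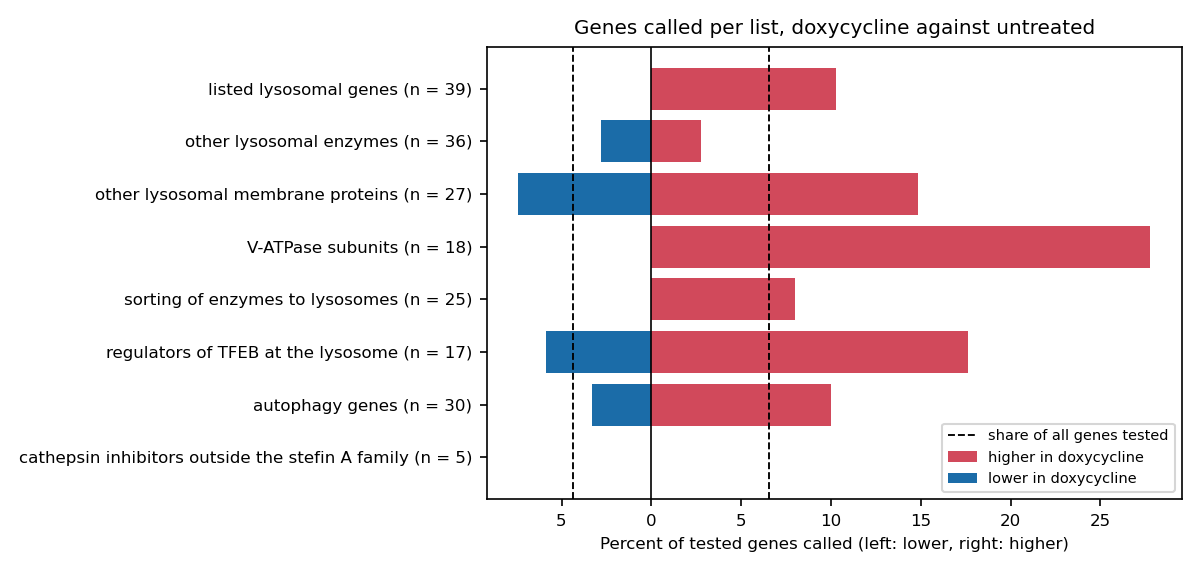
Percent of tested genes in each list that rose or fell in Dox against untreated (edgeR adjusted p below 0.05, without the clone block). Dashed lines mark all tested entries, of which 6.57% rose and 4.35% fell. The V-ATPase list has 5 of 18 genes higher and none lower, and the 5 genes listed as cathepsin inhibitors have none in either direction.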

How the data were processed

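RNA from sorted cells of 3 AML246 clones in 3 conditions was sequenced by the authors, giving 9 libraries. The deposited files hold raw counts of reads per gene and a gene length, per the file headers. The tools named for that step, per the submitters' processing notes, are featureCounts with mm10, CASAVA 1.8.2, limma 3.22.0 and edgeR 3.8.2. Neither aligner nor strand setting is given in the sources used here.

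Counts were tested across all genes with edgeR 4.0.16 in R 4.3.3 (quasi-likelihood F-test on group means over all 9 libraries, TMM factors, filterByExpr with a minimum count of 10 and total of 15, Benjamini-Hochberg threshold 0.05). Among the 27179 entries of each file, 1904 carry no symbol in the RefSeq table (GRCm38.p6) used for names, coordinates and promoters. They stayed in the fit. Clone numbers name the same clone in each condition, so they pair the libraries: deviations from group means correlated at 0.29 to 0.68 in 9 same-clone pairs and -0.69 to 0.32 in 18 others. The fit with the clone as a replicate block is an alternative, as are DESeq2 1.42.0, limma 3.58.1 voom, other scalings and filters, and fits without a clone or library. No 2 libraries agreed within counting noise (smallest chi-square per degree of freedom 3.62). Scripts were tested on simulated data. Figures used matplotlib 3.10.9.

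The members, the lists and the rule for named genes (every gene called in either fit, Tfeb, Tfe3, the 3 highest and 3 lowest levels, and at most 4 called genes of each other list by smallest p) were chosen with earlier results of these data known. Gm2a, Hexa, Scarb2, Lamp1, Ctsl, Ctsz and Ctsh were named in addition, after their values were seen.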

Additional observations from a re-analysis of the deposited data

How the results depend on the processing

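In Dox against untreated, 4 lysosomal genes passed, but 13 with DESeq2, 14 in the paired fit with the replicate block, 10 when fitted on the 2 groups and 13 when washed clone 1 was left out. The share of all entries moved too, from 10.9% to 17.8%, 24.8%, 17.4% and 18.4% in that order. Leaving out 1 clone gave 0 to 6, beside 0% to 7.96% of entries. With the replicate block it gave 2 to 20, beside 2.98% to 33.9% of entries. The 20, found without clone 1, were 14 higher and 6 lower in Dox (Ctsl, Naglu, Ids, Smpd1, Npc2 and Scarb2). In Wash against Dox, 7 passed, but 13 with DESeq2, 13 with the replicate block, 3 when fitted on the 2 groups and 9 when washed clone 1 was left out, with 9.66% of entries becoming 16.4%, 22.9%, 2.75% and 14.8%. Here leaving out 1 clone gave 0 to 6, beside 0.0331% to 8.8% of entries. With the block it gave 3 to 19, beside 2.65% to 35.6% of entries. The 19, again without clone 1, were 13 lower and the same 6 higher. Genes whose level differs between clones numbered 0, but 1 with RLE size factors, 5 with library size alone and 4 with no filter. The share of all entries was 0% in the main fit and 0.616%, 9.5% and 9.46% in those settings. GAGGAAG was found for 7 genes on either strand and 1 on the printed strand. The cause of these shifts was not tested. Over the 17 settings, Asah1 passed in 16 for both comparisons, Ppt1 in 15 and 13, Man2b1 in 14 and 15, and Grn in 14 and 15; Tfe3 passed in 0. No fold change of the genes called in either fit, or of Tfe3, reversed in these 2 comparisons. Among genes not called, the replicate block changed the sign of Gm2a (0.23 to -0.09) and Gaa (0.00 to -0.02) in Dox against untreated and of Fuca1 (0.03 to -0.04) in Wash against Dox. The other values were single genes and the counts of called genes in the other lists. Of these, 497 were classed as unchanged. Among single genes 62 values crossed to pass and 44 crossed to fail, and 128 list counts were classed as moved. Depth limits what can be said of Ctss and Sgsh.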

Other observations

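Asah1 and Smpd1 encode enzymes on either side of ceramide, acid ceramidase and acid sphingomyelinase, and were compared as a ratio after their values were seen. The ratio of Asah1 to Smpd1 CPM in clones 1, 2 and 4 was 0.526, 0.492 and 0.886 untreated, 6.42, 2.63 and 6.94 in Dox, and 1.75, 0.424 and 0.741 in Wash. The Dox ratios were above all others, and the washed clone 1 was above all untreated clones. Every Dox library was above every untreated one for Asah1 and below for Smpd1. The order of Dox and untreated ratios was thus set by the choice of this pair. No test was run on this ratio.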
